A study of Mus musculus with 6 samples.

Results

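The 50 mouse genes described here encode transcription factors of the Sox (16 genes), T-box (13 genes) and forkhead (21 genes) families. They were chosen by name, with earlier results of these data known, and all 50 were found among 21887 protein-coding RefSeq genes. A member was counted where the centre of a listed region fell inside the gene body or up to 10 kb beyond either end. The data are peak lists from methyl-CpG immunoprecipitation sequencing, in which DNA bound by an MBD2-Fc fusion protein, a methyl-CpG binding domain joined to an antibody tail, is sequenced, so that methylated DNA dense in CpG is enriched. The cells were I/11, an erythroblast line from fetal liver of p53-deficient mouse embryos at day 12.5, expanded in 1 U/ml erythropoietin (Epo), 100 ng/ml SCF and 1 µM dexamethasone. All were infected with lentivirus carrying a short hairpin RNA and selected with puromycin. The groups used were hairpin 133 and hairpin 14, both against Plcg1, each at 24 h of differentiation (96 h after infection, with 10 U/ml Epo and 0.5 mg/ml holo-transferrin) and at 0 h (72 h after infection), with 1 library per group. Peak lists of the 2 libraries with a scrambled hairpin were not used here. The lists held 2960 (hairpin 133) and 2666 (hairpin 14) peaks at 24 h, against 3900 and 3437 peaks at 0 h. They give coordinates without a score or count, so read depth is unknown, no difference between libraries has a replicate check, and a listed region does not say whether more or less methylated DNA was found than with the scrambled hairpin. A methylation library measures no transcripts, so neither the knock-down nor the erythroblast label could be checked.

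Sox proteins bind DNA through an HMG box, T-box proteins through the domain first known from brachyury, and forkhead proteins through a winged helix. Members of all 3 families direct the formation of tissues such as nervous system, heart, limb, gut and liver, and many start in CpG-rich DNA, where Polycomb proteins are known to hold them silent in cells of other lineages. Such CpG-rich stretches are the kind of DNA that this assay can report when they are methylated.

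Among the 32 members with a promoter sequence at hand, the gene whose promoter carried a peak in all 4 lists was Sox8, a SoxE factor of neural crest, glia and testis. Its promoter (250 bases before to 50 after the start, chr17:25570637-25570936, minus strand) is printed from RefSeq on build GRCm38.p6 (same coordinates as mm10), with the 113 bases that lay in the peaks of all 4 lists in capitals.
Sox8 promoter: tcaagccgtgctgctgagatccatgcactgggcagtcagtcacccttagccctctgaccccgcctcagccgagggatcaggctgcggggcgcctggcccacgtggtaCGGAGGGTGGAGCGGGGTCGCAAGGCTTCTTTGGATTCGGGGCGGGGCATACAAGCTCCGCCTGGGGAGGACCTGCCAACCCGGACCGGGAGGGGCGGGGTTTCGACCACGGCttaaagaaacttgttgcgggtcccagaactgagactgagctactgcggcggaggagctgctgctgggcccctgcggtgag
At 24 h the peak was the same with both hairpins (chr17:25570717-25570867), centred 106 bases upstream of the start, and held 15 CpG in 151 bases. At 0 h it was again the same with both hairpins (chr17:25570679-25570829), centred 68 bases upstream, and held 12 CpG. The peaks of the times were offset by 38 bases. They are shown with each CpG in capitals, on the strand of the gene.
Sox8 peak at 24 h: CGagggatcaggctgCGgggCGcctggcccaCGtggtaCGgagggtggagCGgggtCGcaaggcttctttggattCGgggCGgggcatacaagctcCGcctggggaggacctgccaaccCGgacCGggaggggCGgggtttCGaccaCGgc
Sox8 peak at 0 h: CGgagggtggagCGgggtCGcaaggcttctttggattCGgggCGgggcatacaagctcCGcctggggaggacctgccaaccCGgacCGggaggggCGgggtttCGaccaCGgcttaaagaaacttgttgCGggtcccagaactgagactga
RefSeq promoter sequences were at hand for 32 of the 50 members, and Sox8 was the only one of these 32 with a peak on that window, in each of the 4 lists. Of 17492 protein-coding genes with an entry, 0.943% and 0.892% had a peak on the window at 24 h (hairpins 133 and 14), against 0.846% and 0.783% in the 0 h lists. Peaks that lay wholly inside such a window held a median of 12 and 13 CpG in the 24 h lists, and of 12 and 10.5 in the 0 h lists, so that the Sox8 peak was above the median at 24 h and at or above it at 0 h. Since 64.0% of members had an entry, under the 80% required, a comparison of promoter CpG content over the families is void and none was made.

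Promoters of 3 other members, chosen after their values were seen, are given as examples of a CpG-rich window without a listed peak on it. Whether CpG content goes with a peak was not tested. Sox12, a SoxC factor of neural progenitors, had 47 CpG in its window (chr2:152397997-152398296) and its peaks at 0 h were centred 1.18 kb upstream. Foxd2, a forkhead factor of kidney and facial mesenchyme, had 26 (chr4:114908849-114909148) and peaks 0.778 kb downstream of the start. Sox11, a SoxC factor of developing neurons, had 21 (chr12:27342669-27342968), as many as Sox8, and no list had a peak within 50 kb of it. All 3 lie on the minus strand, and capitals mark CpG.
Sox12 promoter: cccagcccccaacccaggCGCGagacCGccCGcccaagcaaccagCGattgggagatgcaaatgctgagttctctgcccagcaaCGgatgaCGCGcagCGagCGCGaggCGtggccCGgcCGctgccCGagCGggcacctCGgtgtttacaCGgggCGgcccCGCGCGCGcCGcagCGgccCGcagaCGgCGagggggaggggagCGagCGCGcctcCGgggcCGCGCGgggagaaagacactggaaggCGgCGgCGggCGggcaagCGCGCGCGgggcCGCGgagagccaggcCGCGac
Foxd2 promoter: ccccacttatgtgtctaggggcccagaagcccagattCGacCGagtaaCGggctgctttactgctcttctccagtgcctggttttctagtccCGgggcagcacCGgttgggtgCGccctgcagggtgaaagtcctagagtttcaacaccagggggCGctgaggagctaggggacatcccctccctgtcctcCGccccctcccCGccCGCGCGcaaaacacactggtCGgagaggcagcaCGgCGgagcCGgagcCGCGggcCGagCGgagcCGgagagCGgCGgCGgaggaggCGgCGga
Sox11 promoter: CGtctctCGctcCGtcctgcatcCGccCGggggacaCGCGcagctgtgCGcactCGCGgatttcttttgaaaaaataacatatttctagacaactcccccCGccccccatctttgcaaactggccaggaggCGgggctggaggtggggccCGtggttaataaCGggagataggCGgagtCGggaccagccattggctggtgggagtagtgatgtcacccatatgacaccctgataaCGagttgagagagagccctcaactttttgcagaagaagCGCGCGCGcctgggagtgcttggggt

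Members had a listed peak more often than protein-coding genes at large in each of the 4 libraries. The members were chosen with earlier results of these data known, so this excess is a description and was not tested. Of 31 further genes of the families, 12.9% and 22.6% had a peak at 24 h (hairpins 133 and 14), against 29% and 12.9% at 0 h. At 24 h, 10 of 50 members (20%) had one with hairpin 133, beside 10.5% of all 21887 genes, and 14 (28%) with hairpin 14, beside 9.70%. At 0 h, 15 members (30%) had one with hairpin 133, beside 12.7%, and 14 (28%) with hairpin 14, beside 11.0%. Over all lists 26 members (52%) had a peak in at least 1, beside 26.0% of all genes, and 4 (8%) in every list, beside 2.07%. These were Sox8, Tbx3, Tbx20 and Foxd2. All Sox8 peaks, and all Tbx20 peaks but 1 with hairpin 133 at 0 h, had identical coordinates with both hairpins of their time. Another 5 had peaks in 3 lists, 5 in 2 and 12 in 1, and 24 had none. The shares of all genes with peaks in exactly 3, 2 or 1 lists were not counted. With 2 or more peaks in a list there were 2 and 4 members at 24 h (hairpins 133 and 14), beside 1.75% and 1.56% of all genes, and 3 and 4 members at 0 h, beside 2.23% and 1.90%. Members are short genes, with a median body of 5.17 kb beside 17.2 kb over all genes. Among the 36 members with a body under 10 kb, 5 and 10 were counted at 24 h (hairpins 133 and 14; 13.9% and 27.8%), against 7 and 8 in the 0 h lists (19.4% and 22.2%), beside 5.54%, 5.21%, 6.23% and 5.16% of all genes of that length. Members' peaks made up 14 of 2960 (0.473%, exact binomial 95% interval 0.259 to 0.792%) with hairpin 133 and 18 of 2666 (0.675%, 0.401 to 1.06%) with hairpin 14 at 24 h. At 0 h they were 19 of 3900 (0.487%, 0.294 to 0.760%) and 18 of 3437 (0.524%, 0.311 to 0.826%). These intervals overlap throughout, which is no test between libraries, and cover counting error only. They take peaks as independent, although Tbx3 alone held 4 of the 14 with hairpin 133 at 24 h.

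**Figure D1:**
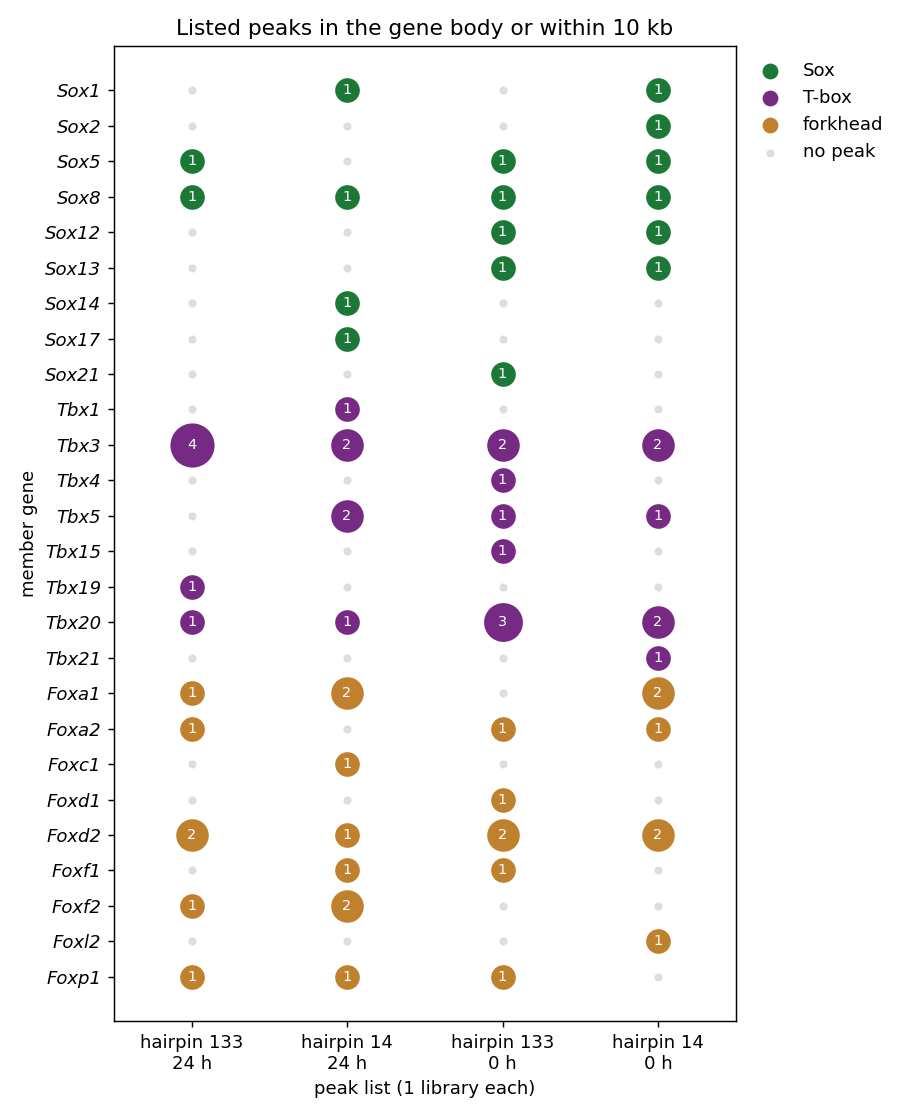
Number of listed peaks in the body of a gene or within 10 kb (number in each disc) for the 26 members with a peak, by family (colour) and list (columns, 1 library each); a small grey dot is no peak. Sox8, Tbx3, Tbx20 and Foxd2 have a disc in all 4 columns, and Tbx3 with hairpin 133 at 24 h has the highest number, 4.

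Each family had members with a peak in every list. Counted in the body or within 10 kb, with hairpin 133 at 24 h, 2 of 16 Sox genes (12.5%), 3 of 13 T-box genes (23.1%) and 5 of 21 forkhead genes (23.8%) had a peak, and with hairpin 14 at 24 h 4 (25.0%), 4 (30.8%) and 6 (28.6%). At 0 h the counts were 5 (31.2%), 5 (38.5%) and 5 (23.8%) with hairpin 133, and 6 (37.5%), 4 (30.8%) and 4 (19%) with hairpin 14. With this window, Sox genes with a peak were fewer at 24 h than at 0 h with each hairpin, forkhead genes were equal or more numerous, and T-box genes were fewer with hairpin 133 and equal with hairpin 14. These directions depended on the window. Within 50 kb, 7 and 5 Sox genes were counted at 24 h (hairpins 133 and 14), against 6 in each 0 h list, and 8 and 10 forkhead genes at 24 h, against 9 and 11 in the 0 h lists. In the gene body alone, 3 and 4 T-box genes were counted at 24 h, against 4 and 2 in the 0 h lists. Without peaks of identical coordinates, Sox genes with hairpin 14 were 3 at 24 h and 3 at 0 h, and T-box genes with hairpin 14 were 3 at 24 h and 2 at 0 h. These are steps of 0 to 3 genes between single libraries, they were not tested, and the 24 h lists hold fewer peaks in all. Within 10 kb the share was above that of all genes in all 12 combinations of family and list, by the least for Sox genes with hairpin 133 at 24 h (12.5% beside 10.5%). In the gene body alone 3 of the 12 were below it. These were Sox genes with hairpins 133 and 14 at 24 h (6.25% in each, beside 7.08% and 6.71%) and forkhead genes with hairpin 14 at 0 h (4.76% beside 7.76%).

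**Figure D2:**
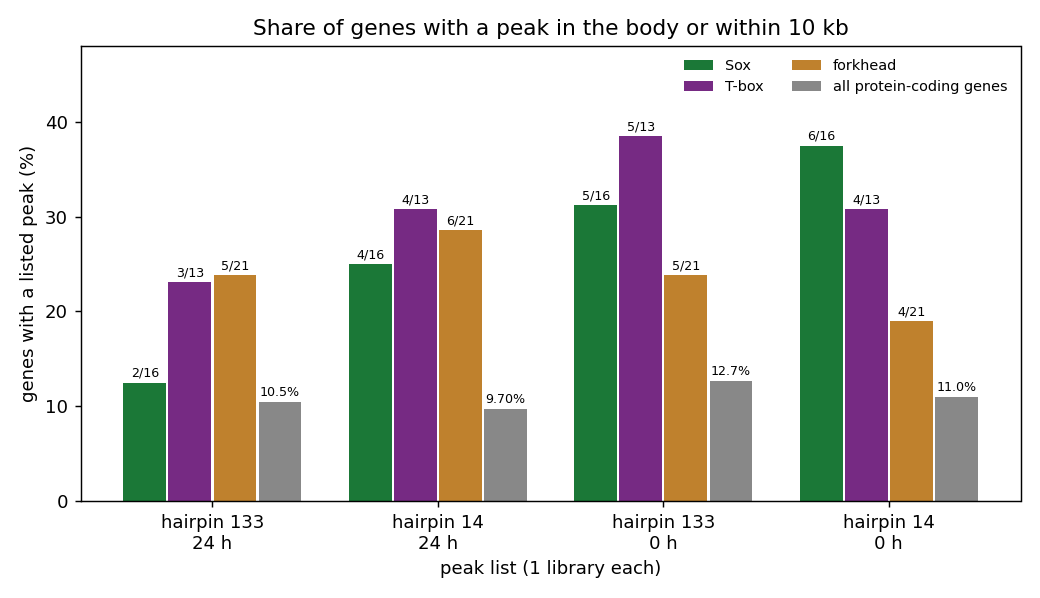
Share of genes with a listed peak in the body or within 10 kb (%, bars from 0) in each list for Sox, T-box and forkhead genes and for all protein-coding genes, with the count over the number of members above the family bars. Every family bar stands above the grey bar of its list, and the lowest, Sox with hairpin 133 at 24 h, is at 12.5% beside 10.5%.

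Among Sox genes 9 of 16 had a peak in at least 1 list (56.2%, beside 26.0% of all genes), a share not adjusted for gene length. Sox8 alone among them had one in every list. Sox5, a SoxD factor of cartilage and neurons whose body spans 954 kb, had 1 peak with hairpin 133 at 24 h, none with hairpin 14 at 24 h, and 1 with each hairpin at 0 h. These were 3 different places, 25.5 kb downstream of the start at 24 h and 939 and 407 kb downstream at 0 h with hairpins 133 and 14, so the gene recurs in the lists without a recurring region. Sox12 and the SoxD gene Sox13 had no peak at 24 h and 1 with each hairpin at 0 h, at identical coordinates (for Sox12 chromosome 2, 152399146 to 152399296). The Sox13 peak lay 11.7 kb inside its body of 42.2 kb (chromosome 1, 133412666 to 133412816).

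The SoxB genes, which act in neural progenitors, each had peaks in few lists. Sox1 had a peak within 10 kb with hairpin 14 only, 5.14 kb upstream of the start at 24 h and 9.71 kb upstream at 0 h. Both lay inside the overlapping transcript Sox1ot. A peak with hairpin 133 at 24 h lay 10047 bp from the Sox1 body, just outside the limit. Sox2, a factor of pluripotent and neural stem cells, had 1, with hairpin 14 at 0 h, inside its body 1.29 kb downstream of the start and within the body of Sox2ot. Sox14 had 1 with hairpin 14 at 24 h, and Sox21 had 1 with hairpin 133 at 0 h. Sox17, a SoxF factor of endoderm and fetal blood stem cells, had 1 with hairpin 14 at 24 h, inside the body 0.334 kb from its end at the higher coordinate. The other SoxF genes Sox7 and Sox18, the SoxE genes Sox9 and Sox10, the SoxC genes Sox4 and Sox11, and Sox15 had no peak in any list.

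Among T-box genes 8 of 13 had a peak (61.5%, beside 26.0% of all genes), a share likewise not adjusted for gene length. Of these, 2, both cardiac regulators, had peaks in every list (15.4% of the family, beside 2.07%). Tbx3, which also patterns limb and mammary gland, had the most peaks of any member: 4 (hairpin 133) and 2 (hairpin 14) at 24 h, against 2 for each hairpin at 0 h. They fell on 5 regions of chromosome 5. A region 1.29 to 1.30 kb beyond the end of the body at the higher coordinate (119685937 to 119686096) was listed with hairpin 133 at 24 h and with both hairpins at 0 h. A region 9.78 to 9.79 kb before the end at the lower coordinate (119660672 to 119660833) was listed with hairpin 14 at 24 h and with both at 0 h, and lies just inside the limit of 10 kb. In the body, 1.83 kb from the higher end, 119682823 to 119682973 was listed with both hairpins at 24 h and with neither at 0 h. The peaks outside the body lay within the transcripts Tbx3os1 and Tbx3os2 that run beside Tbx3.

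Tbx20, a factor of the developing heart, held the other region found in all 4 libraries, 3.86 kb downstream of its start inside the body at 24 h and 3.88 kb downstream at 0 h (chromosome 9, 24770351 to 24770522). At 24 h this was its only peak with either hairpin. At 0 h a further region 6.30 kb upstream of the start (24780533 to 24780683) was listed with both hairpins, and hairpin 133 had 1 more peak near the other end of the gene. Tbx5, a factor of heart and forelimb, had 0 (hairpin 133) and 2 (hairpin 14) peaks at 24 h, against 1 for each hairpin at 0 h. One of its regions (chromosome 5, 119803308 to 119803460) was listed with hairpin 14 at 24 h and with hairpin 133 at 0 h, a pair that shares neither hairpin nor time.

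The remaining T-box members with a peak had 1 each, in 1 list. Tbx1, of the pharyngeal arches, had it with hairpin 14 at 24 h, and Tbx19, which specifies pituitary corticotrophs, with hairpin 133 at 24 h. Tbx4, the hindlimb counterpart of Tbx5, and Tbx15, of skeleton and muscle, had it with hairpin 133 at 0 h. Tbx21, the T-bet factor of T helper cells, had it with hairpin 14 at 0 h, 8.43 kb upstream. Tbx2, Tbx6, Tbx10, Tbx18 and Eomes, which acts in natural killer and T cells, had no peak in any list.

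**Figure D3:**
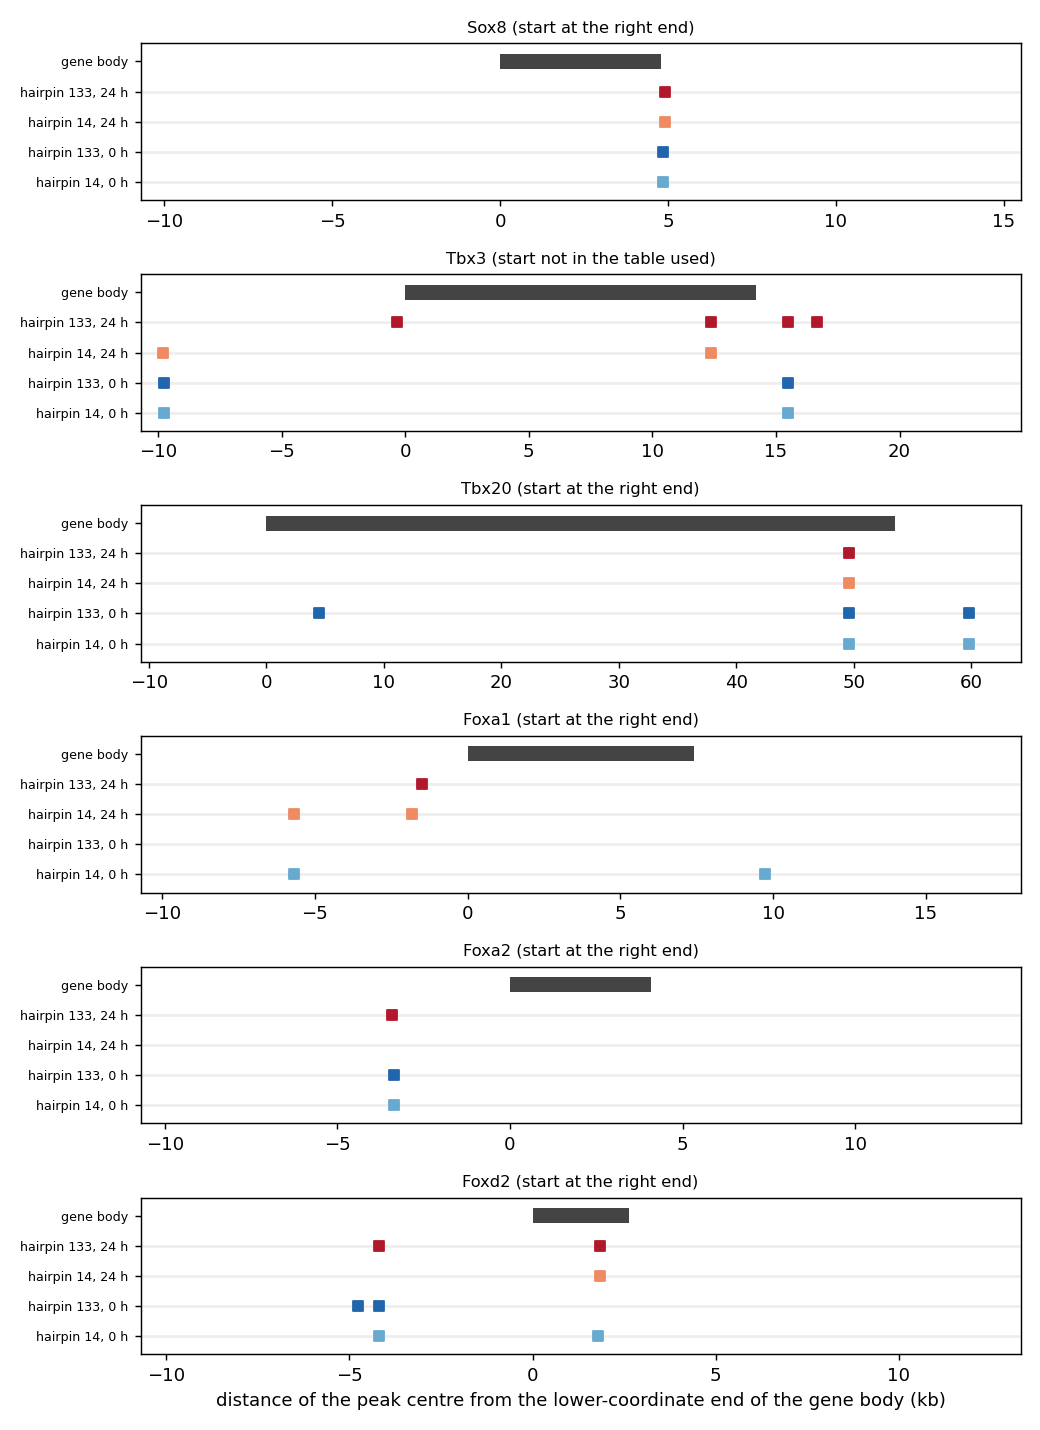
Centres of listed peaks (squares, 1 row per list) around the bodies (dark bars) of Sox8, Tbx3, Tbx20, Foxa1, Foxa2 and Foxd2, in kb from the end of the body at the lower coordinate. Sox8 and Tbx20 have a column of squares through all 4 rows, while at Tbx3 and Foxd2 the rows share some positions and differ in others.

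Among forkhead genes 9 of 21 had a peak (42.9%, beside 26.0% of all genes), again not adjusted for gene length. Foxd2 had 2 (hairpin 133) and 1 (hairpin 14) at 24 h, against 2 for each hairpin at 0 h. A region in its body (chromosome 4, 114907995 to 114908195) was listed with both hairpins at 24 h, 0.778 kb downstream of the start, and with hairpin 14 at 0 h, 0.828 kb downstream. A further region, 4.20 to 4.21 kb beyond the far end of the gene (114901999 to 114902151), was listed with hairpin 133 at 24 h and with both at 0 h. The peaks of Foxd2 thus formed 2 recurring regions, neither of which was in all 4 lists, and 1 peak of its own with hairpin 133 at 0 h.

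Foxa1 and Foxa2, which open chromatin in endoderm and liver, had peaks in 3 lists each. Foxa1 had 1 (hairpin 133) and 2 (hairpin 14) at 24 h, against 0 and 2 in the 0 h lists. At 24 h the nearest peaks of the hairpins were 322 bp apart and did not overlap, and its only recurring region (chromosome 12, 57534876 to 57535038) was that of hairpin 14 at both times. One Foxa1 peak, with hairpin 14 at 0 h, lay inside the neighbouring gene Ttc6 and was the only one of the members' 69 peaks that lay closer to another protein-coding gene. Foxa2 had 1 region (chromosome 2, 148039391 to 148039579), 7.50 kb downstream of the start with hairpin 133 at 24 h and 7.46 kb downstream with both hairpins at 0 h, and none with hairpin 14 at 24 h.

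Foxp1, a regulator of B cells, lung and heart with a body of 597 kb, had 1 peak with each hairpin at 24 h, against 1 (hairpin 133) and 0 (hairpin 14) at 0 h. All 3 lay at different places in the body, at least 11.0 kb apart. Foxf1 and Foxf2 act in gut and lung mesenchyme. Foxf2 had a region 5.49 kb beyond its end (chromosome 13, 31636823 to 31636975) with both hairpins at 24 h, 1 more peak in the body with hairpin 14 at 24 h, and no peak at 0 h. Foxf1 had 1 peak with hairpin 14 at 24 h and another, 8.87 kb away in the body of the transcript Fendrr, with hairpin 133 at 0 h. Foxc1, of eye and vessel development, had 1 peak with hairpin 14 at 24 h, Foxd1, of kidney stroma, 1 with hairpin 133 at 0 h, and Foxl2, of the ovary, 1 with hairpin 14 at 0 h. Foxa3, Foxb1, Foxc2, Foxd3, Foxe1, Foxe3, Foxh1, Foxi1, Foxj1, Foxk1, Foxp2 and Foxq1 had none in any list.

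Between the 0 h and 24 h lists of a hairpin, some members had a peak at 24 h only and others at 0 h only. The 24 h cells were 96 h after infection and the 0 h cells 72 h, and no group was replicated. Differentiation, its medium, time since infection and the library therefore cannot be told apart. With hairpin 133, 3 members had a peak at 24 h only (Tbx19, Foxa1 and Foxf2; 6%, beside 6.32% of all genes), 8 at 0 h only (Sox12, Sox13, Sox21, Tbx4, Tbx5, Tbx15, Foxd1 and Foxf1; 16%, beside 8.53%) and 7 at both times (14%, beside 4.17% of all genes). With hairpin 14, 7 had one at 24 h only (14%, beside 5.68%), 7 at 0 h only (14%, beside 6.98%) and 7 at both times (14%, beside 4.01%). Foxf2 was the only member with a peak at 24 h and none at 0 h with both hairpins, and Sox12 and Sox13 were the members with a peak at 0 h and none at 24 h with both. The share of all genes with such a pattern was not counted. The 0 h peaks of Sox12 and Sox13 had identical coordinates with both hairpins, so neither gene is counted once such peaks are left out. At 24 h the nearest peaks with hairpin 133 lay 17.4 kb from Sox12 and 18.7 kb from Sox13, inside the 50 kb window. With hairpin 14 they lay 229 and 236 kb away. The nearest 0 h peaks to Foxf2 were 829 and 875 kb away (hairpins 133 and 14). Taking either hairpin, 17 members had a peak at 24 h (34%, beside 15.7% of all genes) and 20 at 0 h (40%, beside 17.8%), of which 11 at both (22%, beside 7.53%).

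Between the hairpins, 7 members had a peak with both at 24 h (14%, beside 4.50% of all genes), 3 with hairpin 133 alone (Sox5, Tbx19 and Foxa2; 6%, beside 5.99%) and 7 with hairpin 14 alone (Sox1, Sox14, Sox17, Tbx1, Tbx5, Foxc1 and Foxf1; 14%, beside 5.20%). For Sox1 this rests on the limit of 10 kb, since a hairpin 133 peak at 24 h lay 10047 bp away. At 0 h, 9 had a peak with both (18%, beside 5.89%), 6 with hairpin 133 alone (12%, beside 6.81%) and 5 with hairpin 14 alone (10%, beside 5.10%). For hairpin 133 at 24 h, the share of members not listed at 0 h and the share not listed with hairpin 14 were both close to that of all genes. At 24 h the shorter list, that of hairpin 14, had a peak within 10 kb of 14 members and that of hairpin 133 of 10, but within 50 kb they had 19 and 20. With 1 library for each, a hairpin and its library cannot be told apart.

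A member that recurred in the lists did not always recur with the same region. The members' peaks merged into 46 regions, of which 32 (69.6%) were in 1 list, 7 in 2, 5 (10.9%) in 3 and 2 (4.35%) in all 4, beside 79.2%, 15.4%, 3.02% and 2.35% of 10080 regions over all lists. The 10080 regions include those far from any gene, and regions near protein-coding genes were not counted apart. The difference therefore cannot be read as a trait of the members. Of the 14 members with peaks in 2 or more lists, 10 held a region listed in at least 2 of them, and Sox1, Sox5, Foxf1 and Foxp1 did not. Sox5 and Foxp1 have bodies of 954 and 597 kb. These 2 counts were not made over all genes, so they cannot be read as a trait of the members. Regions of 2 or more lists were 3 of 12 at Sox genes, 6 of 16 at T-box genes and 5 of 18 at forkhead genes.

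**Figure D4:**
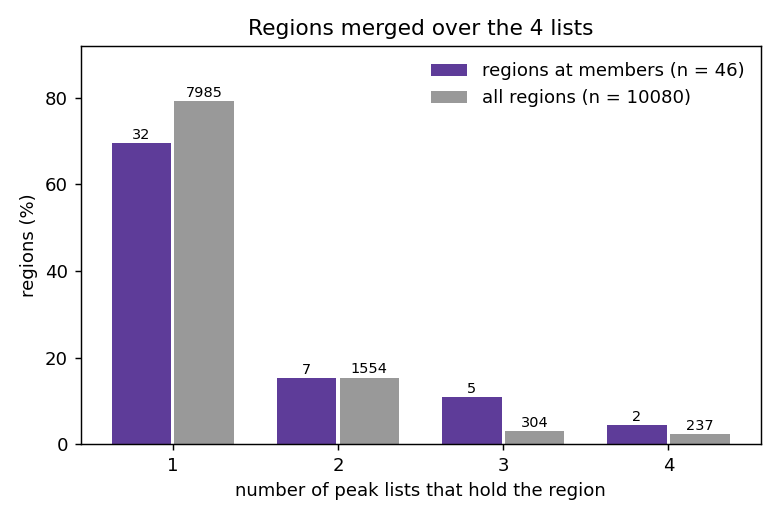
Regions merged over the 4 lists by the number of lists that hold them, as % of regions at members (n = 46) and of all regions (n = 10080), with counts above the bars. Regions in 1 list make up 69.6% at members and 79.2% over all, and regions in 3 lists 10.9% and 3.02%. All regions include those far from any gene.

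Peaks shared by the hairpins within a time had the same coordinates, except at Foxf2 with an offset of 2 bp, and peaks shared between the times did not. At 24 h the hairpins had 5 member peaks in common (35.7% of those with hairpin 133 and 27.8% of those with hairpin 14), 4 of them with identical start and end. Over all peaks, which here and below include those far from any gene, they had 25.2% and 27.9% in common, and 691 of these 745 were identical. At 0 h they had 9 in common (47.4% and 50%), all 9 identical, at Sox8, Sox12, Sox13, Tbx3, Tbx20, Foxa2 and Foxd2. Over all peaks they had 30.9% and 35.1% in common, and 958 of these 1206 were identical. Between 24 h and 0 h, 5 member peaks were in common with hairpin 133 (35.7% of the 24 h list and 26.3% of the 0 h list) and 5 with hairpin 14 (27.8% of each), 0 of them identical. Over all peaks the times had 510 in common with hairpin 133 (17.2% of the 24 h list and 13.1% of the 0 h list), 14 of them identical, and 479 with hairpin 14 (18% and 13.9%), 13 of them identical. Across hairpins and times, hairpin 133 at 24 h and hairpin 14 at 0 h had 6 member peaks in common (42.9% and 33.3%, beside 16% and 13.8% over all peaks). Hairpin 14 at 24 h and hairpin 133 at 0 h had 4 (22.2% and 21.1%, beside 18% and 12.3%), and 0 of these were identical in either pair. The 9 member regions found at both times were offset by 2 to 50 bp between their nearest peaks. Lists of a time may have been called against the same control library, and the part of this in the identical coordinates was not tested. Without peaks of identical coordinates, 8 and 11 members were left at 24 h (beside 8.03% and 7.19% of all genes), against 10 and 8 in the 0 h lists (beside 9.88% and 8.05%). Sox8 was then in no list, and Tbx20 only in that of hairpin 133 at 0 h.

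Over all lists 31 of 69 placements of members' peaks (44.9%) were inside the gene itself. Of the 14 and 18 placements at 24 h (hairpins 133 and 14), 6 and 10 were in the body (42.9% and 55.6%), and of the 19 and 18 at 0 h, 9 and 6 (47.4% and 33.3%), beside 66.8% and 68% in the 24 h lists, and 68.7% and 69% in those of 0 h, for all genes. With a median of 5.17 kb beside 17.2 kb, the members' bodies are a smaller part of a window with fixed flanks of 10 kb. Shares by position, also those by family, were not adjusted for gene length, so the lower share in the body cannot be read as avoidance of it. Within 1 kb of an end of the gene were 4 and 3 at 24 h (28.6% and 16.7%), and 1 and 2 at 0 h (5.26% and 11.1%), beside 21.4% and 23% in the 24 h lists, and 16.6% and 18% in those of 0 h. By family, 15 of 26 placements at T-box genes were in the body, 7 of 17 at Sox genes and 9 of 26 at forkhead genes, and all 3 Sox5 and all 3 Foxp1 peaks were. A body-only count touched 6 and 9 members at 24 h, beside 7.08% and 6.71% of all genes, against 8 and 6 in the 0 h lists, beside 8.74% and 7.76%. With 1 kb added either side the counts were 7 and 10 at 24 h, beside 7.67% and 7.24%, against 9 and 7 in the 0 h lists, beside 9.35% and 8.24%. With 50 kb they were 20 and 19 at 24 h, beside 21.5% and 19.6%, against 23 in each 0 h list, beside 26.1% and 22.7%. Of all 69 placements, 23 lay inside the body of another annotated gene.

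The limit of 10 kb decided a few calls. Just inside it was the Sox1 peak with hairpin 14 at 0 h (9.71 kb). The outer region of Tbx3 (9.79 kb with hairpin 14 at 24 h) was also just inside, but Tbx3 had another peak in each list that held it. Just outside it, with hairpin 133 at 24 h, were a peak 10047 bp from Sox1 and a peak 10570 bp from Sox2. A region 10222 bp from Foxc2, a factor of lymphatic vessels, with hairpin 14 at 24 h and 10197 bp from it with both hairpins at 0 h was likewise outside. No list had a peak within 50 kb of 11 members (22%), which were Sox4, Sox7, Sox9, Sox11, Sox18, Tbx18, Eomes, Foxb1, Foxh1, Foxj1 and Foxk1. The matching share of all genes was not counted, so it is not known whether this share is high or low.

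**Figure D5:**
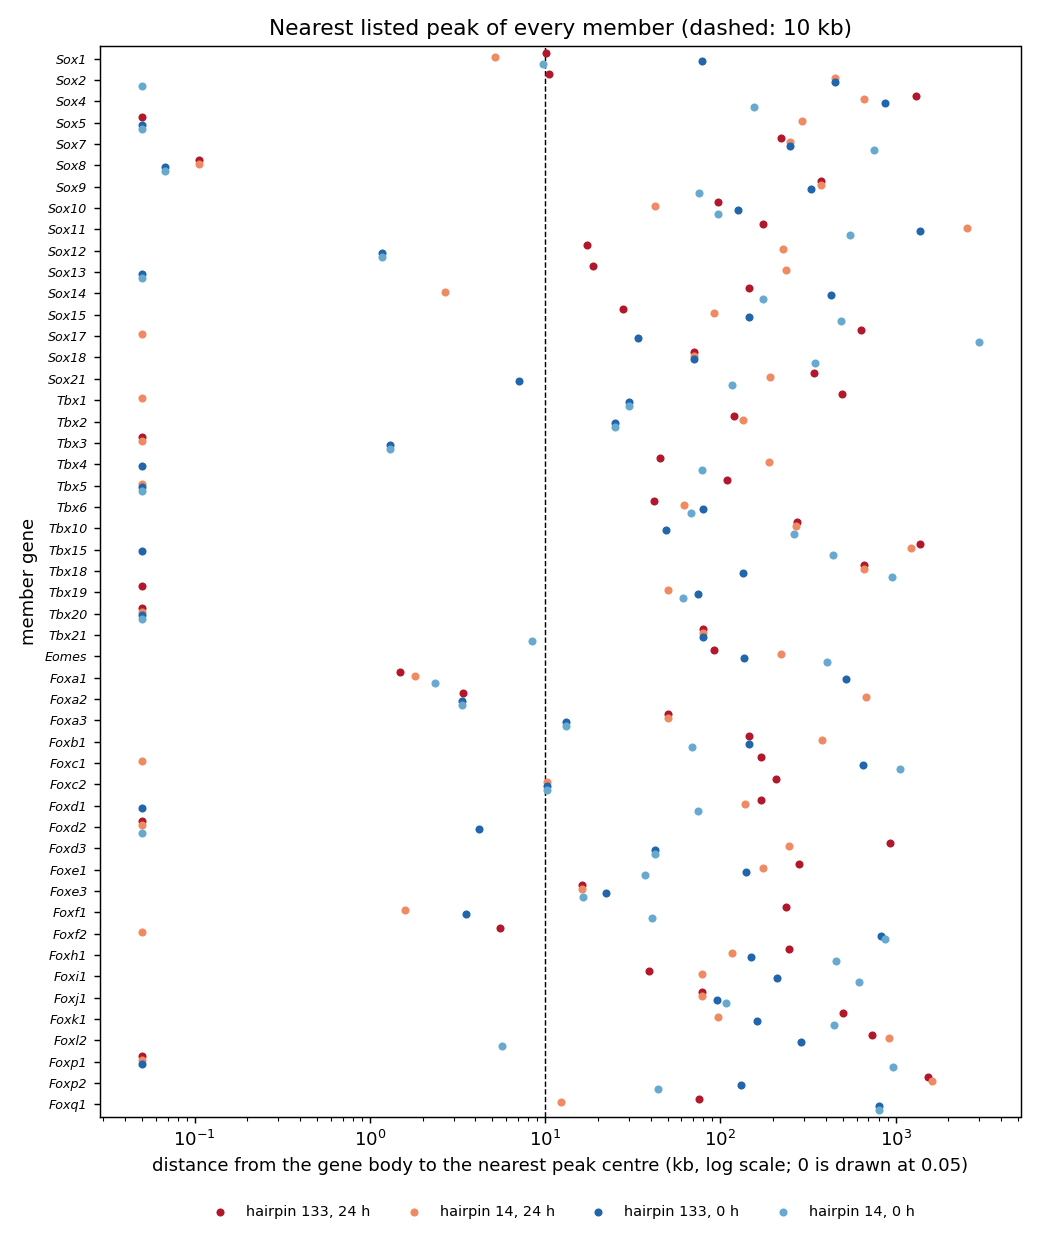
Distance from the body of each of the 50 members to the nearest listed peak centre (kb, log axis, with 0 drawn at 0.05), 1 point per list; the dashed line is the limit of 10 kb. Points left of the line are the calls, Sox8 lies nearest its gene without being inside it at 0.068 to 0.106 kb, and 11 members such as Sox4 and Eomes have no point under 50 kb.

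Other genes of the same families and of their known partners were counted the same way. Of 31 further Sox, T-box and forkhead genes, 4 and 7 were counted at 24 h (hairpins 133 and 14; 12.9% and 22.6%), against 9 and 4 in the 0 h lists (29% and 12.9%), and Foxn3 alone had one in all 4 lists. Of 26 Polycomb genes, whose proteins silence many members in other lineages, 4 and 6 were counted at 24 h (15.4% and 23.1%), against 4 and 5 in the 0 h lists (15.4% and 19.2%), with Cbx2 in all lists. Of 14 POU genes, some of which bind DNA together with Sox proteins, 1 and 4 were counted at 24 h, against 2 in each 0 h list, and none in all lists. Of 6 Groucho corepressors, which forkhead and other factors recruit, 1 was counted in each 24 h list, against 3 and 1 in the 0 h lists, with Tle3 in all lists. The shares of all genes to set these against are 10.5% and 9.70% at 24 h, and 12.7% and 11.0% at 0 h. The difference between these lists and the members was not tested.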

How the data were processed

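The 6 libraries were made from I/11 cells, and the 4 with a hairpin against Plcg1 have the peak lists used here, 1 per library and group. Per the labels' protocols, fragments of about 150 bp were bound to MBD2-Fc and eluted with 1 M NaCl. Per the submitters' processing notes, BWA, Picard, SAMtools and HOMER were used with build mm10. Their versions, the caller's threshold and the library that peaks were called against are not given in the sources used here. The values the authors deposited are start and end coordinates, with no score, and were read as 0-based and are given as 1-based. Widths were 151 bp, except 1 peak of 120 bp.

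Peaks were assigned in Python 3.11.15 by their centre to genes of RefSeq on GRCm38.p6, and regions of at least 1 bp overlap were merged. Gene starts came from the RefSeq promoter table and were used for the 32 members it lists. The others are Sox7, Sox9, Sox10, Sox17, Sox18, Tbx2, Tbx3, Tbx5, Tbx15, Foxb1, Foxc2, Foxe1, Foxf1, Foxh1, Foxj1, Foxk1, Foxp2 and Foxq1. Exact binomial intervals are from SciPy 1.17.1. With 1 library per group no test was run. The counting was checked on planted peaks. Any member with a peak could be named, and those in 2 or more lists are given list by list. Promoters were to be printed where a peak overlapped them. Members and lists were chosen with earlier results of these data known. Alternatives varied the window, the overlap, the gene length and the peaks of identical coordinates.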

Additional observations from a re-analysis of the deposited data

How the results depend on the processing

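No library or group was replicated, so none could be left out. No paired analysis was possible because each group is 1 library and the result comes from no test. Values are given for hairpins 133 and 14 at 24 h, then at 0 h. Counting members once where windows overlap (only Foxd2 with Foxe3), any base of a peak in place of its centre, or the nearest protein-coding gene alone kept all counts of members within 1.5 times. With the gene body alone, 6, 9, 8 and 6 members had a peak, against 10, 14, 15 and 14. By family, these were 1, 1, 2 and 3 Sox genes, 2 (hairpin 133, 24 h) and 2 and 1 (0 h lists) forkhead genes, and 2 T-box genes with hairpin 14 at 0 h. With 1 kb either side the 0 h counts were 9 and 7. With 50 kb either side they were 20 and 19 at 24 h (hairpins 133 and 14), against 23 in each 0 h list, so that the hairpins changed order at 24 h. That gave 7 Sox genes with hairpin 133 at 24 h, 5 and 8 T-box genes with hairpin 133 at 24 h and 0 h, and 8, 10, 9 and 11 forkhead genes. A wider window holds more peaks by construction. Members with a body under 10 kb, a split chosen after seeing the data, gave 5 (hairpin 133, 24 h), against 7 and 8 in the 0 h lists. Without peaks of identical coordinates, 8 members were left with hairpin 14 at 0 h, and Sox counts were 1 (hairpin 133, 24 h) and 2 and 3 in the 0 h lists, and T-box 2 with hairpin 14 at 0 h. Requiring identical start and end left 0 member peaks shared between times in each of the 4 pairs, while an overlap of 50% of the peak or centres within 500 bp kept all 6 pairs within 1.5 times. Peaks within 2 kb of a gene end were 7, 8, 4 and 6, and within 500 bp 1 with hairpin 14 at 0 h. Depth is unknown, so a missing peak cannot be read as a lack of methylation.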
